A study of Danio rerio with 18 samples.

Results

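The regions described here were the stretches of zebrafish liver chromatin that carried an accessibility peak in injured endothelial cells and injured hepatic stellate cells and in no other group of the study. They were chosen by the peak lists themselves: the peaks of all 6 groups were joined into regions wherever they overlapped by at least 1 bp, and a region was kept if it held a peak of TAA-treated endothelial cells and a peak of TAA-treated stellate cells, and no peak of the 4 other groups. This gave 3918 of 92012 regions, or 4.26% (95% Wilson interval 4.13 to 4.39%, counting error over regions only). They are called shared gained regions below.

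The accessibility of chromatin was measured by ATAC-seq, in which a transposase cuts and tags DNA that is not packed around nucleosomes. Cells were sorted from livers of adult female fish of the AB background, and each library was made from 60000 cells. Endothelial cells (EC) carried Tg(kdrl:ras-mCherry), stellate cells (HSC) Tg(hand2:EGFP) and hepatocytes (HEP) Tg(fabp10a:dsRed), so the EC, HSC and HEP groups are whatever cells the promoters of kdrl, hand2 and fabp10a made fluorescent. Fish received 6 intraperitoneal injections within 2 weeks, of thioacetamide (TAA, 500 mg/kg) in the TAA groups and of a control solution in the control groups. The study names this solution as sterile water in 1 place and as saline in others. There were 18 libraries, 3 in each of the 6 groups, but the deposited lists give 1 combined set of peaks per group. No value below therefore has a replicate error or a test, and the read depth is not known from the files. The study describes fewer control fish than control libraries, so whether each library came from its own fish is not known for every group.

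Thioacetamide is turned by hepatocytes into reactive metabolites that damage the tissue, and repeated doses are a standard way to produce liver fibrosis in animals. Hepatic stellate cells are the vitamin A storing mesenchymal cells beside the sinusoids, and on injury they turn into matrix-producing, contractile cells. Sinusoidal endothelial cells line the capillaries next to them, and both cell types exchange signals and deposit matrix during injury. Accessible regions away from gene starts are often enhancers, which act on genes at a distance, so a region that is accessible in injured cells of both types marks a stretch of DNA that regulators can reach in both. The genome of the build of the lists, GRCz11, was not used here, so the DNA letters of the regions are not shown and positions are given instead.

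The shared gained regions were a sizeable class among all the ways in which the 6 lists overlapped. Of the 15 possible pairs of lists, the EC TAA and HSC TAA pair held the most regions. The pair next in number was EC control with HSC control, with 2161 regions in both of these lists and no other. EC TAA with HEP TAA alone held 179 regions and HSC TAA with HEP TAA alone held 385. The choice proceeded in steps: 48359 regions held a peak of both injured lists, 22738 of them had no EC control peak, 6961 had no HSC control peak, and 5818 had neither. Of these 5818, 838 also had a peak of HEP TAA, 567 one of HEP control, 495 peaks of both HEP lists, and the remaining 67.3% were the shared gained regions. The HSC control list set the number more than the EC control list did. With the other 5 lists merged in its absence, 4505 regions met the rule without EC control and 6691 without HSC control. The EC control list stood apart from the other 5, with 15874 regions found in it alone and a further 10377 found in every list but it.

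In each cell type, far more regions had a peak in the TAA list and none in the control list than were shared. Gained means no more than this here, since a peak can be missing from a combined list for lack of depth. Of all regions, 29.8% had a peak in EC TAA and none in EC control (27390 regions), and 16.3% had a peak in HSC TAA and none in HSC control (15002). The shared gained regions were 14.3% of the first set (13.9 to 14.7%) and 26.1% of the second (25.4 to 26.8%). Of the first set, 10377 regions had a peak in every list but EC control. Regions found in EC TAA alone numbered 3366 and those in HSC TAA alone 6346. Peaks were also missing in the other direction, with 15874 regions found in EC control alone and 2484 in HSC control alone. The regions gained in all 3 cell types, with peaks of the 3 TAA lists and of no control list, numbered 838. All these counts follow from the lists that chose the regions and are given as a description.

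The shared gained regions were weak peaks. The score of a peak is 10 times −log10 of its q value, so it rises with depth as well as with accessibility. Lists are therefore compared by the rank of a peak within its own list. A rank is only a rough guide, since it also depends on how many weak peaks the list holds. In EC TAA the scores of the 3918 regions ran from 54 through a median of 190 to 2161, while the median of the whole list was 439. In HSC TAA they ran from 52 through a median of 203 to 1430, against a list median of 439. As percentiles of their lists, the medians were 19.4 in EC TAA and 24.2 in HSC TAA. Only 52 regions, 1.33%, lay above the median of both lists, and 39.3% lay below the 25th percentile of both (1541 regions). A region found in few lists tends to be a weak one by construction, and the regions in all 6 lists had median percentiles of 72.6 in EC TAA and 77.2 in HSC TAA.

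Shared and unshared gains differed in rank. Regions in EC TAA alone had a median percentile of 10.2 and those in HSC TAA alone 11.7, both below the shared gained regions. The regions gained in all 3 cell types ranked higher still, at 25.4 in EC TAA and 30.0 in HSC TAA. The widths followed the same order, with medians of 119 bp for either single list, 156 bp for the shared gained regions and 175 bp for the gains in all 3 cell types. The order is that of the number of lists that had to find a peak, which the choice of the regions sets in part.

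**Figure D1:**
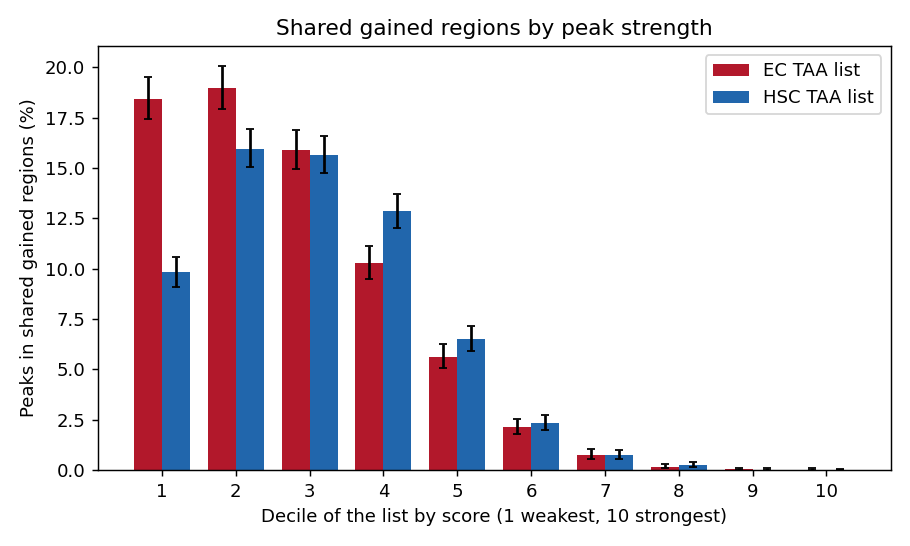
Share of the peaks of each injured list that lie in shared gained regions (y axis, %), by decile of the list from the weakest to the strongest scores (x axis); bars are EC TAA and HSC TAA, and the error lines are 95% Wilson intervals over peaks. The share is 19.0% in the second-weakest decile of EC TAA and 16.0% in that of HSC TAA, and falls to 0.0184% and 0 in the strongest deciles.

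The plot by deciles shows where in each list these regions sat. In EC TAA they took 18.4% of the weakest decile of peaks, 19.0% of the next and 15.9% of the third, then 5.64% of the fifth and 0.775% of the seventh. In HSC TAA they took 9.82% of the weakest decile, 16.0% of the next, 15.7% of the third, 6.52% of the fifth and 0.737% of the seventh. In HSC TAA the weakest decile held a smaller share than the next, with intervals of 9.10 to 10.6% and 15.1 to 16.9%. In EC TAA the intervals overlapped, at 17.4 to 19.5% and 17.9 to 20.1%. These intervals cover counting error over peaks of 1 combined list, and the same lists chose the regions. Neither difference was therefore tested. In the strongest decile there was 1 such peak among 5423 in EC TAA and none among 6127 in HSC TAA.

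**Figure D2:**
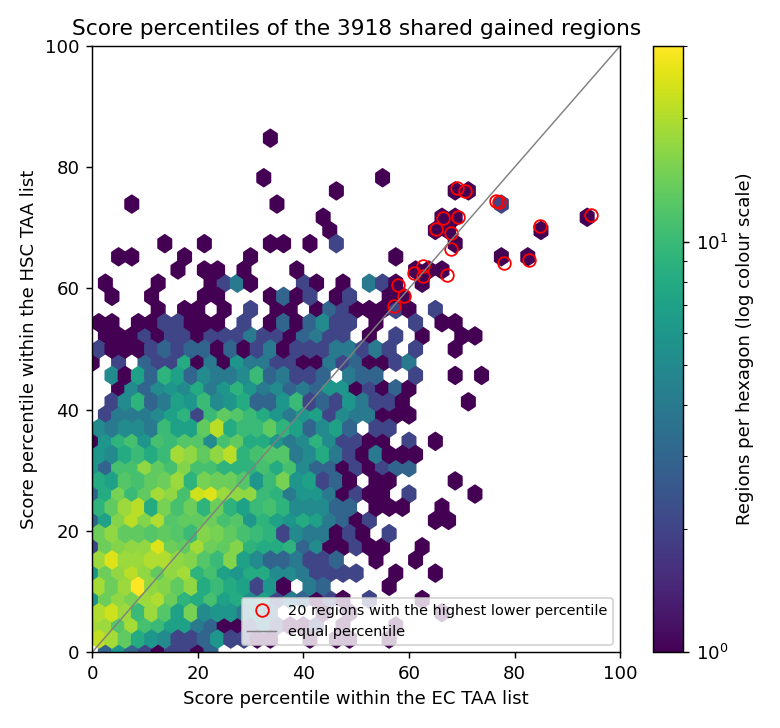
Score percentile of the 3918 shared gained regions within the EC TAA list (x axis) and the HSC TAA list (y axis), as counts per hexagon on a log colour scale; red circles mark the 20 regions with the highest lower percentile and the grey line marks equal percentiles. Most regions lie below 50 on both axes, and 59.8% lie above the line.

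The ranks of a region in both cell types were related as follows. Across the 3918 regions the percentiles had a Spearman correlation of 0.40, which is a description over regions that come from the same libraries. The regions gained in all 3 cell types gave 0.41, and the regions in all 6 lists gave 0.92. The shared gained regions span only the weak end of both lists, which lowers a correlation by construction, so these values are not comparable in strength. The shared gained regions ranked higher in HSC TAA in 2344 cases (59.8%) and higher in EC TAA in 1574. The lists differ in length and a given score in this range took a higher percentile in HSC TAA, so part of this split follows from the lists themselves. In 449 regions (11.5%) the percentiles were more than 25 points apart. At the extremes, chr19:41199790-41200001 was the best in EC TAA, with a score of 2161 there and 904 in HSC TAA. The best in HSC TAA was chr5:48225521-48225732, with a score of 1430 there and 275 in EC TAA.

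The rule joins peaks by overlap, so peaks of both cell types had to lie near each other, and the following distances are a description. The points of highest signal were a median of 11 bp apart, and 67.5% were within 20 bp of each other (66.1 to 69.0%). The overlap covered at least 50% of both peaks in 3765 regions, 96.1%. The gains in all 3 cell types aligned as closely, with a median of 11 bp, and the regions in all 6 lists more closely, with a median of 6 bp.

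The 20 regions whose lower percentile was highest were spread over 12 chromosomes. The first, chr7:54519375-54519703, had a score of 1005 in EC TAA and 986 in HSC TAA, or percentiles of 76.5 and 74.4. The 4 other lists had no peak there, and the closest was an HSC control peak 2262 bp away, while the closest EC control peak was 19391 bp away. The next, chr7:36300125-36300346, scored 1027 in EC TAA and 982 in HSC TAA and lay 14982 bp from any peak of the other lists. The region chr23:44970112-44970300 scored 820 in EC TAA and 1045 in HSC TAA, and chr19:8564722-8564999 scored 781 and 1067. All of these exceed the median of both injured lists by a wide margin, with no peak in either control. By the last of the 20, chr8:36288090-36288286, the scores were 540 and 546, or percentiles of 57.1 and 57.0.

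The first region had company. A second strong region, chr7:54504616-54504978, lay about 15 kb from it and scored 1374 in EC TAA and 850 in HSC TAA. Within 60 kb on either side of the first region 17 regions were found, of which 5 were shared gained regions. The strongest peak of the neighbourhood lay between both and was itself present in uninjured stellate cells and in both HEP lists, with no EC control peak. It scored 2510 in EC TAA, 2393 in HSC TAA and 1008 in HSC control, or percentiles of 96.9, 94.3 and 81.3. In HEP control and HEP TAA it scored 347 and 568, or percentiles of 53.4 and 69.9. EC control had 6 peaks in this stretch, with a highest score of 475, and 5 of them lay at the far left of it.

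The distance to the peaks of the groups that lacked these regions varied widely. The median gap to the nearest peak of any of the 4 other lists was 3118 bp, and it ranged from 3 to 187872 bp. For single lists the median gap was 4168.5 bp to HSC control, 5433 bp to HEP TAA, 5964 bp to HEP control and 6155.5 bp to EC control. A peak of another list lay within 500 bp of 759 regions (19.4%), and none lay within 10 kb of 761 (19.4%). Regions in EC TAA alone and in HSC TAA alone, which lack the same 4 lists, had larger median gaps to them, of 4171.5 and 4599 bp, with a peak within 500 bp of 13.7% and 17.3%.

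**Figure D3:**
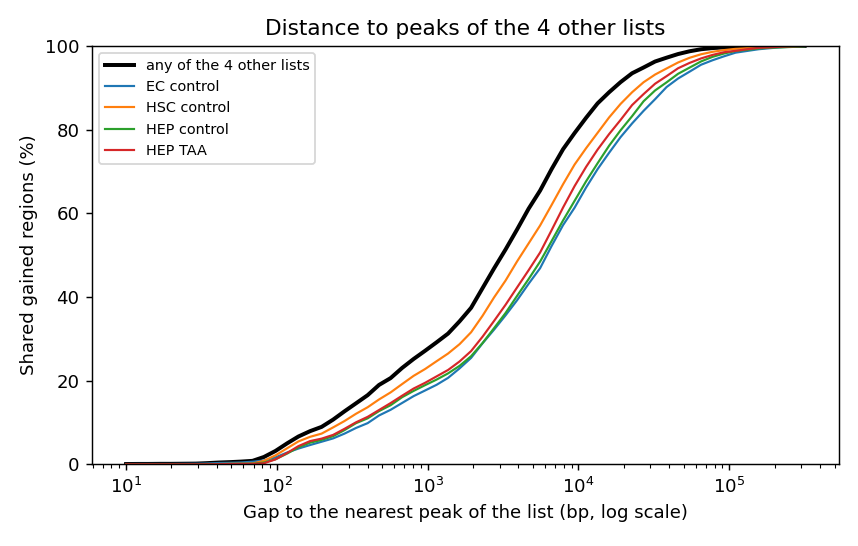
Share of the 3918 shared gained regions (y axis, %) with a peak of each other list within a given gap (x axis, bp, log scale); the black line takes the nearest peak of any of the 4 other lists. At the median, the black line crosses near 3118 bp and the EC control line near 6155.5 bp.

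The farthest regions stood in stretches where no other group had a peak at all. The farthest was chr10:40567139-40567335, with scores of 133 in EC TAA and 343 in HSC TAA and no other list's peak for 187872 bp, in the annotated promoter of taar18i, a trace amine-associated receptor gene. The next were chr1:56798808-56798998, with scores of 169 and 427 and a gap of 149587 bp, and chr17:47980304-47980432, with scores of 281 and 225 and a gap of 146469 bp.

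Regions just inside the rule were those with another list's peak almost touching. The closest was chr4:3133422-3133576, with a score of 318 in EC TAA and 147 in HSC TAA and another list's peak 3 bp away, and 20 regions lay within 50 bp of one. Just outside the rule were regions that 1 weak peak removed. The weakest such peaks scored 61 in EC control at chr2:55316802-55317008, 51 in HSC control at chr8:14318934-14319143, 59 in HEP control at chr12:20745838-20746152 and 59 in HEP TAA at chr3:34994101-34994271. In all, a peak of HSC control alone removed 2765 regions, of HEP TAA alone 838, of EC control alone 574 and of HEP control alone 567. The removing peaks were weak ones of their lists, with median percentiles of 28.0 in EC control, 21.9 in HSC control, 16.0 in HEP control and 16.1 in HEP TAA.

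Relative to the rest of the accessible genome, the shared gained regions sat in denser neighbourhoods. Another region of any kind lay within 1 kb of 33.0% of them (31.5 to 34.5%). This share was 27.2% over all regions, 25.7% for EC TAA alone (24.2 to 27.2%) and 22.9% for the gains in all 3 cell types (20.2 to 25.9%), and it came to 1716 of the 6346 regions of HSC TAA alone. Their median gap to the nearest region was 2474 bp, against 2952 bp over all regions. The nearest region was one found in all 6 lists for 25.3%, and one missing only from EC control for 13.4%, where over all regions these shares were 23.6% and 11.3%. They were 21.1% and 13.4% for EC TAA alone, 23.7% and 11.1% for HSC TAA alone, and 22.7% and 14.1% for the gains in all 3 cell types. A nearest region missing only from EC control was thus not particular to the shared gained regions. Another shared gained region lay within 10 kb of 548 of them, or 14.0%. For comparison, 11.9% of EC TAA only and 13.9% of HSC TAA only regions had one of their own kind that close, and these classes differ in size, which this share depends on.

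**Figure D4:**
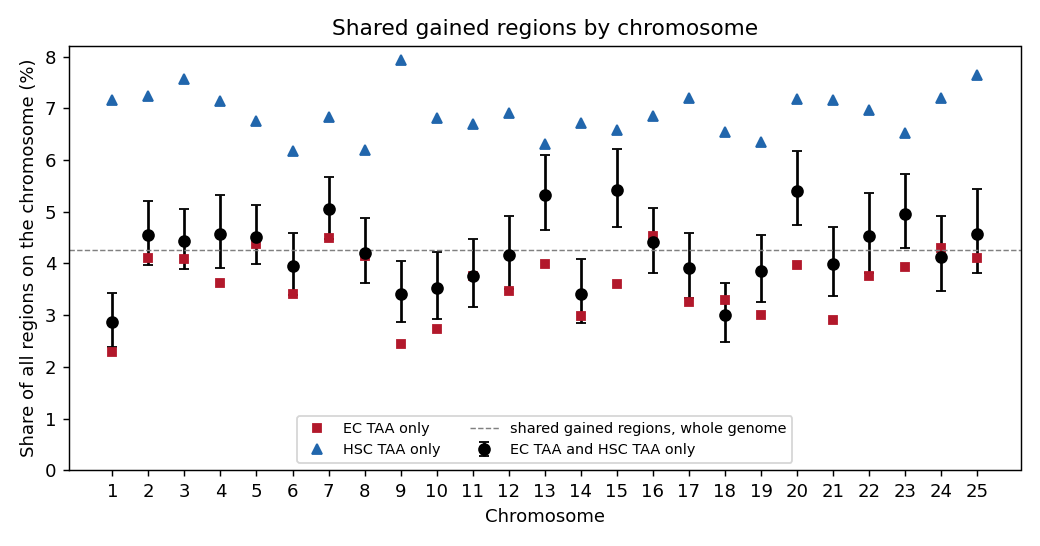
Share of all regions of each chromosome (x axis) that are shared gained regions (black points, y axis in %, with 95% Wilson intervals over regions), beside the EC TAA only (red) and HSC TAA only (blue) regions; the dashed line is the genome-wide 4.26%. The black points run from 2.86% on chromosome 1 to 5.41% on chromosome 15.

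Their share of the regions differed between chromosomes. Chromosome 15 held the largest share, with 5.41% of its regions, and chromosome 20 was equal to it at this precision, followed by chromosomes 13 with 5.33%, 7 with 5.04% and 23 with 4.96%, and the intervals of these 5 lay above the genome-wide share. The smallest were 2.86% on chromosome 1, 106 of 3531 regions on chromosome 18, 3.41% on 9, 3.41% on 14 and 3.52% on 10, with their intervals below it. The intervals of the other 15 chromosomes held the genome-wide share. All these intervals cover counting error over regions only, which are not replicates. They were not corrected for looking at 25 chromosomes, and no difference between chromosomes was tested. As the plot by chromosome shows, EC TAA only regions, 3.66% of all regions, also had lower shares on these 5 smallest chromosomes by share. They ran from 2.29% on chromosome 1 and 2.45% on 9 to 3.29% on 18. HSC TAA only regions, 6.90% of all regions, were at 7.16% on chromosome 1 and 7.92% on 9. They were slightly below 6.90% on 10, 14 and 18, at 6.82%, 6.71% and 6.54%. On chromosomes 15, 20, 13, 7 and 23, EC TAA only regions were at 3.60%, 3.97%, 3.98%, 4.49% and 3.92%. HSC TAA only regions were there at 6.58%, 7.18%, 6.30%, 6.83% and 6.53%. On chromosome 15, with the largest share of shared gained regions, both single-list classes were thus slightly below their shares over all regions.

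Most windows with a shared gained region held only 1, though the borders of the windows were fixed. The median gap from a shared gained region to the nearest other one was 61543 bp, less than the width of a window. Within their own classes this gap was 83104 bp for EC TAA only and 59581 bp for HSC TAA only regions, and it depends on class size. Of 12490 windows of 100 kb that held any region, 2953 held at least 1 shared gained region, and 2229 of those held exactly 1. The fullest window, chr13:33100001-33200000, held 7 among its 18 regions, with scores of 154 to 519 in EC TAA and 115 to 279 in HSC TAA. Its strongest neighbours, such as chr13:33138427-33138729 with 1730 in EC TAA, 1647 in HSC TAA and 948 in HSC control, were shared with HSC control and both HEP lists and lacked an EC control peak. The window chr23:44900001-45000000 held 6 among 11, with the strong region at 44970112 among them. Beside it, chr23:44977616-44977910 was open in all 6 lists. It scored 160 in EC control, below the median of 299 of that list. Its scores of 2953 in EC TAA and 2001 in HSC control lay above the list medians of 439 and 360. The window chr8:51200001-51300000 held 6 among 17, with scores of 173 to 592 in EC TAA and 121 to 368 in HSC TAA. In these 3 windows the new peaks thus stood among strong older ones that hepatocytes and uninjured stellate cells also had. Some of the older regions had an EC control peak too, such as chr8:51292972-51293468 with a score of 1338 there and chr13:33187583-33187803 with 525.

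Gene names could be given for a small part of the regions. The study's own annotation of promoter peaks (within 3 kb of a gene start) was used on the stretch for which its rows were held, which is chromosomes 1 and 10 and part of 11, for peaks of HSC and HEP. Symbols follow the name table, where a symbol in capitals leaves the zebrafish paralog open. On these 3 chromosomes 68 of 344 shared gained regions overlapped an annotated promoter peak, of 65 genes, and the 3574 regions on other chromosomes carry no name. The 344 cover all of chromosome 11, including the part without rows. The same share over all regions is not given here, so 68 is not read as many or few. The named regions had median percentiles of 20.6 in EC TAA and 28.0 in HSC TAA, and the other 276 had 17.8 and 25.9. They were closer to the peaks of the other lists, with a median gap of 1127.5 bp against 3071 bp. Names came only from promoter peaks of HSC and HEP, so this contrast depends on how names were available.

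Among the listed genes, those of the extracellular matrix held regions at col6a1 and FN1. The gene col6a1 encodes a chain of type VI collagen, a microfibrillar collagen of the tissue matrix. Its annotated promoter held a shared gained region, chr11:34065626-34065795, that scored 357 in EC TAA and 457 in HSC TAA, and a second one, chr11:34067964-34068130, that scored 363 and 389. Within 3 kb of its start EC TAA had 4 peaks and HSC TAA 3, EC control and HSC control had none, and both HEP lists had 1 each, of scores 166 and 186. The strongest EC TAA peak there, chr11:34067397-34067583 with a score of 409, overlapped both HEP peaks and was not part of a shared gained region. The col6a1 start was thus without a peak in both control lists of the cell types that gained one.

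Further shared gained regions lay around the col6a1 start. Whether they act on col6a1 was not tested, and other genes of the stretch were not looked up. Within 60 kb on either side of the first region 18 regions were found, and 6 of them were shared gained regions. They lay from about 10 kb on one side to about 48 kb on the other. EC TAA and HSC TAA had 15 peaks each in this stretch, HSC control had 8, HEP control and HEP TAA had 7 each, and EC control had 1. That single EC control peak scored 159, at percentile 23.8 of its list. At this position EC TAA scored 1973, HSC TAA 1857 and HSC control 1911, or percentiles of 92.9, 89.6 and 93.9. The region with the weakest EC TAA peak of the 6 scored 120 there and 250 in HSC TAA. The stretch thus combined peaks new to both cell types with older peaks that uninjured stellate cells and hepatocytes had. Of its 18 regions, 17 had no EC control peak, so most of the older peaks were missing from EC control as well.

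**Figure D5:**
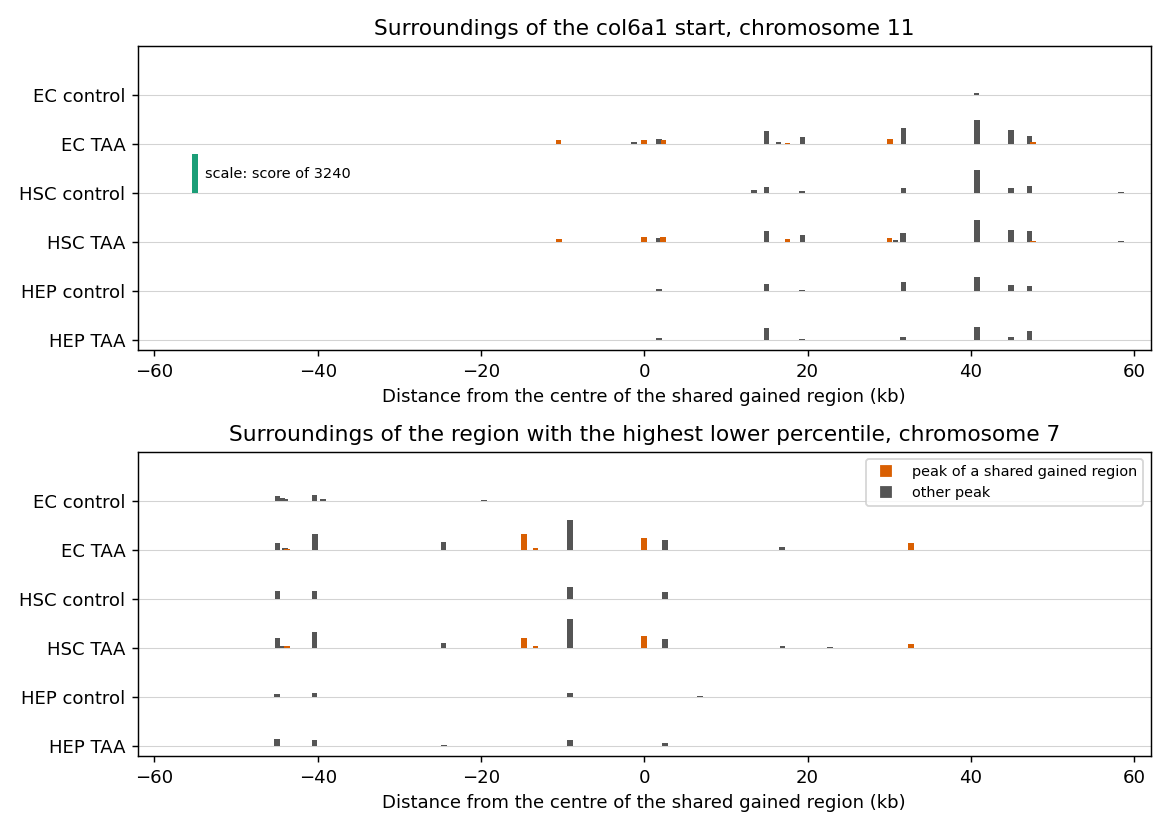
Peaks of the 6 lists around the shared gained region at the col6a1 start (top) and around the region with the highest lower percentile (bottom); the x axis is the distance from the centre of that region in kb, each row is 1 list, bar height is the peak score against the green scale bar, bars are drawn wider than the peaks, and orange bars are peaks of shared gained regions. The orange bars occur in the EC TAA and HSC TAA rows only, 6 regions at the top and 5 at the bottom, and the EC control row has 1 peak at the top.

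The other matrix gene was FN1, a fibronectin 1 paralog, which encodes the adhesive glycoprotein that cells lay down early in wound repair. Its region, chr1:5542512-5542648, scored 244 in EC TAA and 393 in HSC TAA, and the peaks of both had their highest point at the same base. Here the promoter was already open in other groups. Its best peaks scored 821 in HSC control, 498 in HEP control and 676 in HEP TAA, or percentiles of 76.1, 65.8 and 75.4. Those of EC TAA and HSC TAA scored 742 and 900, or percentiles of 67.5 and 71.9. By rank they were thus not above HSC control and HEP TAA. EC control had no peak within 3 kb of the start. At FN1 the shared gained region was therefore an added peak beside a promoter with peaks in HSC control and both HEP lists, but none in EC control. The nearest peak of another list was a HEP control peak 277 bp away, and the nearest EC control peak was 57680 bp away. Of 47 matrix genes listed, 5 had an annotated promoter row, and col6a1 and FN1 were the 2 of them with a shared gained region within 3 kb of the start. Over all 1507 genes with a row, 91 had one, or 6.04% (4.94 to 7.36%), and nothing particular to matrix genes is read from so few.

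Among the other listed pathways, few genes could be looked up. Over the 8 pathway lists, 25 of 312 genes had a row, and 3 of them had a shared gained region within 3 kb of the start. A gene has a row only if HSC or HEP had a promoter peak there, so these counts are no sample of the lists. The third gene was pparg, the nuclear receptor of fat storage that is high in quiescent stellate cells of mammals. Its region, chr11:669207-669328, scored 274 in EC TAA and 164 in HSC TAA. Its start was open in every group, with best scores of 361 in EC control, 896 in EC TAA, 542 in HSC control and 773 in HSC TAA. As percentiles of their lists these were 56.9, 73.2, 63.9 and 67.5. The lists of TGF-beta and related signalling (1 gene with a row), AP-1 and immediate early factors (2), lipid metabolism (6), xenobiotic and redox metabolism (3), inflammation and complement (4) and angiogenic signalling (3) had none.

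The remaining named regions fell at genes of many kinds, with roles given here as known for the mammalian genes. The named region with the highest lower percentile was at VPS36, a subunit of the endosomal sorting complex ESCRT-II, with 486 in EC TAA and 623 in HSC TAA. The strongest in EC TAA was at ENSDARG00000094958, which has only a clone-based symbol, with 911 there and 377 in HSC TAA. The region at pmaip1, which encodes the pro-apoptotic BH3-only protein Noxa, scored 312 in EC TAA and 147 in HSC TAA. Genes of the cytoskeleton and adhesion held actb1, a cytoplasmic actin, at 159 and 153, and TLN1, the integrin activator talin 1, at 186 and 111.

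Genes of signalling and transcription were among them too. GPC5, a glypican, had 250 in EC TAA and 341 in HSC TAA, ERRFI1, an inhibitor of the EGF receptor, had 159 and 163, and BHLHE40, a basic helix-loop-helix repressor, had 206 and 132. PAX7, a factor of muscle stem cells and neural crest, had a weaker pair at 98 and 148. At ARHGEF38, sh2d4a and TACC1, 2 regions each overlapped annotated promoter peaks, whereas at col6a1 the second region lay within 3 kb of the start without overlapping an annotated peak. At TACC1 the second region scored 182 in EC TAA and 449 in HSC TAA.

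Metabolic and organelle genes were also represented. TM7SF2, a sterol reductase of cholesterol synthesis, had 440 in EC TAA and 321 in HSC TAA, and OGDH, the dehydrogenase of the citric acid cycle that acts on 2-oxoglutarate, had 191 and 248. SRD5A2, a steroid reductase, had 237 and 325, and ugt1b3, a UDP glucuronosyltransferase, had 174 and 242. SMPD1, the acid sphingomyelinase of lysosomes, had 175 and 226, TCIRG1, a subunit of the vacuolar proton pump, had 133 and 206, and ATG4D, a protease of autophagy, had 430 and 175. HPGD, which inactivates prostaglandins, had the lowest EC TAA score of the named regions, 62, beside 215 in HSC TAA. These genes are examples chosen after their values were seen, among the genes with rows, and no share of the class at any function follows from them.

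Markers of the sorted cell types could be checked only in part. None of the endothelial (18 listed) or stellate (15 listed) markers had a row, so the identity of the EC and HSC groups was not checked here. Of 15 hepatocyte markers, 4 had one, the fibrinogen chain genes fga, FGB and FGG, and ambp, and all 4 had peaks within 3 kb of the start in all 6 lists. Their best scores ranged from 106 to 193 in EC control and from 1108 to 2111 in EC TAA. They ranged from 699 to 1931 in HSC control, from 1348 to 2560 in HSC TAA, from 848 to 1644 in HEP control and from 683 to 1321 in HEP TAA. As percentiles, they lay between 8.56 and 32.5 in EC control and between 71.7 and 95.4 in the 5 other lists. The promoters of these hepatocyte genes thus ranked low in EC control alone of the 6 lists, while the ranges of the other 5 lists overlapped.

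Shared gained regions lay at 2 of these 4 hepatocyte genes, fga with scores of 126 in EC TAA and 224 in HSC TAA, and ambp with 241 and 238. Over all 1507 genes with a row the share with such a region was 6.04%, and nothing particular to hepatocyte genes is read from so few. The regions have no HEP peak, by the rule, but the HEP lists are the shortest of the 6, with 41563 and 44649 peaks against 54209 in EC TAA and 61245 in HSC TAA. The part of hepatocyte chromatin in the sorted groups, and of list length, in the shared gained regions was not tested. Macrophage markers (16 listed) had 3 rows, all under the same symbol, MFAP4, and biliary markers had 2. Neither list had a shared gained region. Neutrophil, T and natural killer cell, B cell, and red cell and thrombocyte markers had no row.

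The number and the identity of the regions depended on the weak end of the lists. When each list was cut to the length of the shortest, 1345 regions met the rule, of which 54.1% were among the 3918. With the better 50% of each list 1716 met it, but only 52 of these were among the 3918, since most were regions whose peaks in the other lists had been removed with the weak ones. In each of these cases the EC TAA and HSC TAA pair still held the most regions of any pair of lists.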

How the data were processed

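ATAC-seq peaks of 18 libraries in 6 groups of 3 were analysed from the 6 deposited peak lists. According to the study's methods and the submitters' processing notes, 75 bp paired reads were trimmed with cutadapt 1.18, checked with FastQC 0.11.8 and aligned to GRCz11 with Bowtie2 2.3.4.3. Short fragments, with ends shifted for the transposase, were passed to MACS2 2.1.0.2, replicates were combined by Fisher's method, and bedtools 2.27.1 removed low-complexity peaks. The value used is the score the authors deposited for each peak, 10 times −log10 of q. A group's q is that of its combined list, so it rises with depth, and depth, replicate spread and fold enrichment are not known from the files; a missing peak can mean low depth.

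Peaks overlapping by at least 1 bp were merged with Python 3.11.15, numpy 2.4.6 and pandas 2.3.3, and each region was given its best score per list and the percentile of that score in the list. Shares have 95% Wilson intervals (scipy 1.17.1), which cover counting error over regions only; regions are not replicates, and no test was made. Figures were drawn with matplotlib 3.10.9. Merging was tested on simulated intervals.

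The regions named were the 20 with the highest lower percentile, those within 3 kb of the start of a listed gene, the 3 fullest windows of 100 kb, and those closest to and farthest from other peaks; further promoter genes and the other regions singled out were chosen after their values were seen. The regions and the gene lists were chosen with earlier results of these data known. Gene IDs come from the study's promoter annotation, of which chromosomes 1 and 10 and part of 11 were used. Distances to all gene starts and motif counts, which had been planned, were not run, since no GRCz11 genome or gene models were used here. Alternatives were shorter lists, a score minimum of 100, isolation by 500 bp, a reciprocal overlap of 50%, and lists left out.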

Additional observations from a re-analysis of the deposited data

How the results depend on the processing

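The number of shared gained regions (3918) stayed within 1.5 times under a score minimum of 100 in both lists. The same held with no other peak within 500 bp, a peak overlap of at least 50%, and the EC control list ignored. The score minimum, the 500 bp setting and the overlap setting only took regions away from the 3918, leaving 3564, 3159 and 3765. They describe the regions rather than test the rule. Keeping only the 25 numbered chromosomes could not change the number, since all these regions lay on them. With the HEP lists ignored the number rose to 5822, close to the limit of 1.5 times. It moved to 1716 with the better 50% of each list, 1345 with each list at the length of the shortest, 563 with the best 20000 peaks of each list and 6691 with the HSC control list ignored. Under these 4 settings the median percentile was, in that order, 59.8, 36.3, 71.0 and 21.9 in EC TAA and 60.2, 42.2, 72.5 and 27.4 in HSC TAA. It was 22.2 and 26.6 with the HEP lists ignored, and 21.0 and 25.6 with the score minimum. The shorter lists move it by their construction, since weak peaks are left out. The 2161 regions with peaks of EC control and HSC control only moved to 995, 720 and 330 with the shorter lists, and to 4887 with the HEP lists ignored. This comparison and the settings that ignore the EC or HSC control list were chosen after seeing the data. The alternatives for distances to gene starts and for motifs were not run. No paired analysis was possible because each group has 1 combined list, and for the same reason no library could be left out. Depth is unknown, and it limits how far a missing peak can be read as closed chromatin.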
